A study of Mus musculus with 745 samples.

Results

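Slc22a8, Slco1a4, Slco1c1 and Slco2b1 are 4 organic anion transporter genes of the brain endothelium, taken by symbol from the 20607 genes of a count table of single mouse brain endothelial cells. The proteins are OAT3, OATP1A4, OATP1C1 and OATP2B1. Each sample was 1 primary endothelial cell, sorted by FACS from enzymatically dissociated brain of mice aged 3 months; the sort markers are not given. The 745 cells carried 3 set names in their titles, Young1 (30.2% of cells), Young2 (34.6%) and AY_Y3 (35.2%), and their labels gave no genotype, strain, sex or treatment. What a set stands for (an animal, a pool or a plate) is unstated, so the spread between sets may be technical, and no ages were compared.

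Organic anion transporters carry drugs, hormones and their sulfated or glucuronidated conjugates across membranes. The SLC22 member OAT3 exchanges organic anions for intracellular dicarboxylates and in the brain endothelium is known for moving anions and neurotransmitter breakdown products out of brain fluid. The SLCO members are sodium-independent transporters of larger amphipathic anions: OATP1A4 carries bile acids, steroid conjugates and digoxin, OATP1C1 has high affinity for thyroxine and brings it into the brain, and OATP2B1 carries steroid sulfates and many drugs. The endothelium of a brain vessel changes along its course from artery through capillary to vein, and the question asked here is where along that course each gene is transcribed.

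In the GENCODE annotation of GRCm38, Slc22a8 lies at chr19:8591254-8611835 on the plus strand. Slco1c1 at chr6:141524368-141570177 (plus) and Slco1a4 at chr6:141805440-141856199 (minus) are near each other on chromosome 6. Slco2b1 lies at chr7:99657804-99711340 on the minus strand, where its exons overlap those of Gm15635 and Gm34280 on the other strand. Whether counting used strand is unstated, so reads in the stretches that these 3 genes share cannot be told apart. Slco1a4 has close paralogs, among them Slco1a5, and reads that they share are uncertain, although Slco1a5 was listed at 0 in all the class sums used below. The RefSeq promoters of the genes on chromosomes 19 and 6 are shown so that the sequence before each start can be read beside the levels given below. Slco2b1 has 3 annotated starts and the counts do not say which is used. Each is the 250 bases before the start in GRCm38.p6, 5′ to 3′ on the gene's strand, at chr19:8592932-8593181 (plus, within the longer GENCODE span), chr6:141856221-141856470 (minus) and chr6:141524104-141524353 (plus).
Slc22a8: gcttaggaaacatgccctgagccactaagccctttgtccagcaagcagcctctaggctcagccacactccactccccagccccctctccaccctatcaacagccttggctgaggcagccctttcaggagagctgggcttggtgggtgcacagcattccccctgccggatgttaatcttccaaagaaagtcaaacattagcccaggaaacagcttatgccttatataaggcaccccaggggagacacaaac
Slco1a4: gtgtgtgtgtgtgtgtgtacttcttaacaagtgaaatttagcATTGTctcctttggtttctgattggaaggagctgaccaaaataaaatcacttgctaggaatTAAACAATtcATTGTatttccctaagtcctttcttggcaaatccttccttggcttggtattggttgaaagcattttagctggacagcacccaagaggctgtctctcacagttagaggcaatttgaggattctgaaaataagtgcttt
Slco1c1: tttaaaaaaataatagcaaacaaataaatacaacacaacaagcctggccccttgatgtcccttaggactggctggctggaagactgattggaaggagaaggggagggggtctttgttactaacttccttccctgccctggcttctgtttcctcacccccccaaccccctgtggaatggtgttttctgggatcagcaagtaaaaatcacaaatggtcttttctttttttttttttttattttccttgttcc
Capitals mark matches on either strand to 4 short motifs: ATTGT (SOX), CTTTGA (TCF/LEF), AGGTCA (a nuclear receptor half-site) and TGTTTA (forkhead). Slco1a4 held 3 SOX matches and 1 forkhead match, the forkhead one overlapping a SOX one, and Slc22a8 and Slco1c1 held none. The windows before the 3 Slco2b1 starts held 1, 2 and 0 forkhead matches and no other. Of 32851 RefSeq promoters of this length, 27.7% held the SOX letters, 13.8% TCF/LEF, 14.02% the half-site and 12.03% forkhead. The GC content was 55.2% for Slc22a8, 39.2% for Slco1a4 and 42.8% for Slco1c1, against a median of 52.4% over all promoters. A match to short letters describes the window and does not locate a bound site.

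Counts per cell ranged from 52819 to 2421434 (medians 757949 in Young1, 713031 in Young2 and 411397 in AY_Y3). A well was left out where the markers of another cell type summed to over 2000 CPM, where CPM is a count scaled to the total count of its cell. This took 14.9% of the cells, 80 of them over the limit on pericyte markers, and left 634 endothelial wells, of which 31.1%, 33.6% and 35.3% were of Young1, Young2 and AY_Y3. Their 10 endothelial markers summed to means of 18073, 16944 and 19586 CPM in these sets. Every member had a count in each set and passed the filters of the test described below.

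Slco1a4 and Slco1c1 were detected in most wells, Slc22a8 in over 56% and Slco2b1 in 40 to 55% of the wells of a set. Slco1a4 had at least 1 count in 86.3%, 90.1% and 91.5% of the wells of Young1, Young2 and AY_Y3. Slco1c1 was detected in 82.7%, 89.2% and 90.2%, and Slc22a8 in 56.9%, 59.6% and 69.2%. For Slco2b1 the shares were 39.6%, 47.9% and 54.9%. The order Slco1a4, Slco1c1, Slc22a8, Slco2b1 was the same in each set, but Slco1a4 and Slco1c1 had overlapping intervals throughout; in Young1, for example, the exact 95% intervals were 80.7 to 90.8% and 76.7 to 87.7%, which cover counting error only. After thinning each cell to 50000 counts, detection averaged 60.2% for Slc22a8, 86.2% for Slco1a4, 84.7% for Slco1c1 and 40.2% for Slco2b1 over the 3 sets, against 61.9%, 89.3%, 87.4% and 47.5% unthinned.

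Slc22a8 had no count in many wells and a high level in others. Its mean was 832, 828 and 1048 CPM in Young1, Young2 and AY_Y3, while the 25th percentile of wells was 0 in every set and the highest well held 8260 CPM. Wells with a count had medians of 1282, 1224 and 1242 CPM in the 3 sets, so positive wells were alike between sets and the share of positive wells differed. Slco1a4 averaged 1156, 1542 and 1314 CPM and Slco1c1 1151, 1522 and 1578 CPM, both with Young1 lowest. Slco2b1 averaged 180.8, 222.2 and 269 CPM, and the tenth of wells with the most of it held 61.2% of its summed CPM, against 39.1% for Slc22a8, 30.5% for Slco1a4 and 32.1% for Slco1c1. Per kilobase of exon, which allows genes to be compared, the summed counts gave 234.5 ± 27.8 CPM per kb for Slc22a8, 205.3 ± 31.2 for Slco1a4, 273 ± 45.9 for Slco1c1 and 35.6 ± 8.89 for Slco2b1 (SD, n = 3 sets). On this scale the set values of Slc22a8, Slco1a4 and Slco1c1 overlapped, from 177.4 to 304 CPM per kb, and those of Slco2b1, 28.7 to 45.6, lay below them all.

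Wells were then placed by the segment markers: Bmx and Gkn3 for arterial, Nr2f2 and Il1r1 for venous, and Cxcl12 and Rgcc for capillary endothelium. A well joined the class of its highest score where that was above 0 and led the next by 0.25. This put 17.98% of wells in the arterial, 19.4% in the venous and 39.9% in the capillary class and left 22.7% in none. The arterial class held 23, 48 and 43 wells of Young1, Young2 and AY_Y3, the venous class 36, 45 and 42, and the capillary class 83, 71 and 99; these classes are ranges of a score, not cell types, and 43 assigned wells were within 0.25 of the required lead. Markers that the classes did not use were highest in their own class for 13 of 14 arterial, 11 of 13 venous and 3 of 6 capillary genes. Mgp, an arterial matrix gene, averaged 2003 CPM per well in arterial, 97.2 in venous and 32.2 in capillary wells. The transporters were not used in making the classes.

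Slc22a8 was lower in arterial wells than in venous and in capillary wells, Slco1a4 was lower in arterial than in venous wells, and Slco1c1 was called in neither comparison. Counts were summed per set and class for the test, which leaves 3 values a class. For Slc22a8 the sums gave 122.2, 161.6 and 156.9 CPM in arterial wells (Young1, Young2, AY_Y3), against 1014, 924 and 1427 CPM in venous wells and 1097, 990 and 1312 CPM in capillary wells. Each arterial sum lay far below every venous and capillary sum, and the venous and capillary sums overlapped. The log2 fold change was −2.92 ± 0.17 for arterial against capillary wells (SE; edgeR quasi-likelihood, Benjamini-Hochberg adjusted p = 0.00329) and −2.86 ± 0.17 for arterial against venous wells (adjusted p = 0.0010). The first call was lost without Young2 (−3.07 ± 0.19, edgeR adjusted p = 0.0843) and without AY_Y3 (−2.86 ± 0.22, adjusted p = 0.118). The second was lost without AY_Y3 (−2.70 ± 0.22, edgeR adjusted p = 0.0687). Fits without Young1, Young2 and AY_Y3 called 8, 0 and 0 genes of any kind against capillary wells. Against venous wells they called 32, 5 and 5. A call lost in such a fit, here or below, is therefore not particular to that gene.

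**Figure D1:**
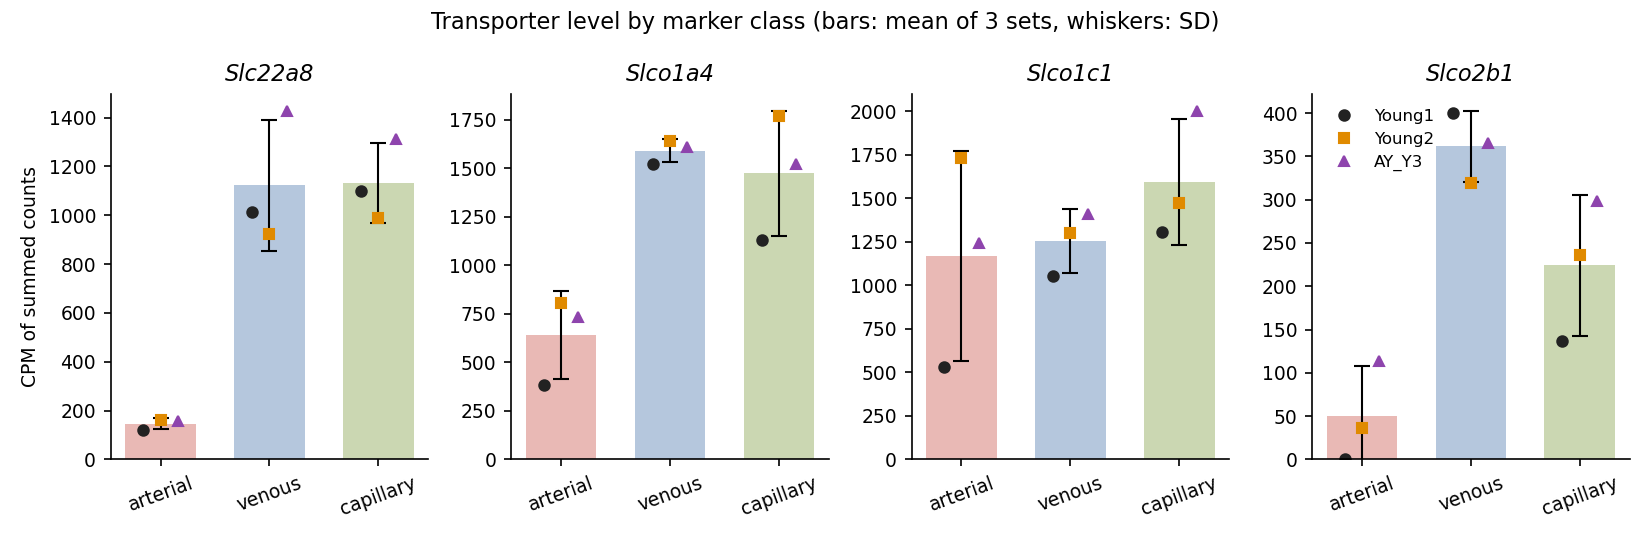
CPM of the summed counts (y axis, linear) of the 4 transporters in arterial, venous and capillary wells; bars are means of 3 sets, whiskers SD and points the sets. Arterial Slc22a8 lies between 122.2 and 161.6 CPM, below every other class sum of that gene, whereas the Slco1c1 classes overlap and Slco2b1 is at 0 in the arterial wells of Young1.

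Both the share of positive wells and the level in them were lower for Slc22a8 in arterial wells. It had a count in 26.1%, 25% and 27.9% of arterial wells, against 80.6%, 77.8% and 95.2% of venous wells and 61.4%, 67.6% and 76.8% of capillary wells. Arterial wells with a count had medians of 325, 549 and 429 CPM, against 1203, 1023 and 1323 CPM in positive venous wells and 1533, 1305 and 1308 CPM in positive capillary wells. Thinned to 50000 counts the arterial share averaged 24.9%, against 82.7% in venous and 65.8% in capillary wells, in the same order.

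Slco1a4, which carries bile acids and steroid conjugates, was also lowest in arterial wells. Its sums were 383, 806 and 735 CPM in arterial wells, against 1524, 1640 and 1608 CPM in venous wells and 1130, 1767 and 1524 CPM in capillary wells. No arterial sum reached any of the other 6. It was lower in arterial than in venous wells by 1.33 ± 0.18 log2 units (edgeR, log2 fold change −1.33, adjusted p = 0.0179). The call ended without Young1 (−1.06, edgeR adjusted p = 0.0723), Young2 (−1.47, adjusted p = 0.202) or AY_Y3 (−1.44, adjusted p = 0.239), where few genes of any kind were called. Against capillary wells the log2 fold change of −1.22 ± 0.18 was not called (edgeR adjusted p = 0.0514), and DESeq2 on the same sums called it (−1.20, adjusted p = 6.54e-09). Most arterial wells still had some Slco1a4: 60.9%, 75% and 83.7%, against 97.2%, 97.8% and 100% of venous wells and 92.8%, 97.2% and 96% of capillary wells.

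Slco1c1, the thyroxine carrier, was called by edgeR in no comparison. Its sums were 530, 1731 and 1243 CPM in arterial wells, 1051, 1301 and 1413 CPM in venous wells and 1309, 1472 and 2003 CPM in capillary wells. The classes overlapped, and Young2 had its highest sum in arterial wells. The log2 fold change was −0.54 ± 0.26 for arterial against capillary wells (edgeR adjusted p = 0.697) and −0.16 ± 0.26 for arterial against venous wells (adjusted p = 0.892); the second was 0.15 without Young1, whose arterial sum was the lowest. Detection was 65.2%, 87.5% and 88.4% in arterial, 88.9%, 95.6% and 97.6% in venous and 90.4%, 90.1% and 91.9% in capillary wells.

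Slco2b1, the carrier of steroid sulfates and drugs, had its lowest sums in arterial wells, and edgeR did not call the difference. None of the 23 arterial wells of Young1 had a count, which allows a share of up to 13.04%, while 18.8% of arterial wells in Young2 and 23.3% in AY_Y3 had one. Its sums were 0, 36.8 and 113.5 CPM in arterial wells, 400, 319 and 365 CPM in venous wells and 136.98, 236.5 and 299 CPM in capillary wells. The 3 classes did not overlap, in the order arterial, capillary, venous. The fit gave −3.69 ± 1.62 for arterial against venous wells (edgeR adjusted p = 0.468) and −2.77 ± 1.51 for arterial against capillary wells (adjusted p = 0.733). Without Young1 these were −2.34 ± 0.43 (adjusted p = 0.131) and −1.997 ± 0.43 (adjusted p = 0.26), and without AY_Y3 they were −5.46 ± 2.47 (adjusted p = 0.678) and −4.25 ± 2.29 (adjusted p = 0.857). With classes drawn from the longer marker lists both passed, at −2.89 (edgeR adjusted p = 0.00332) and −2.24 (adjusted p = 0.00784). The longer capillary list holds Car4 and Itm2a, which were among the 5 genes most like Slco2b1 across wells. Passing with these lists is therefore not independent of Slco2b1.

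**Figure D2:**
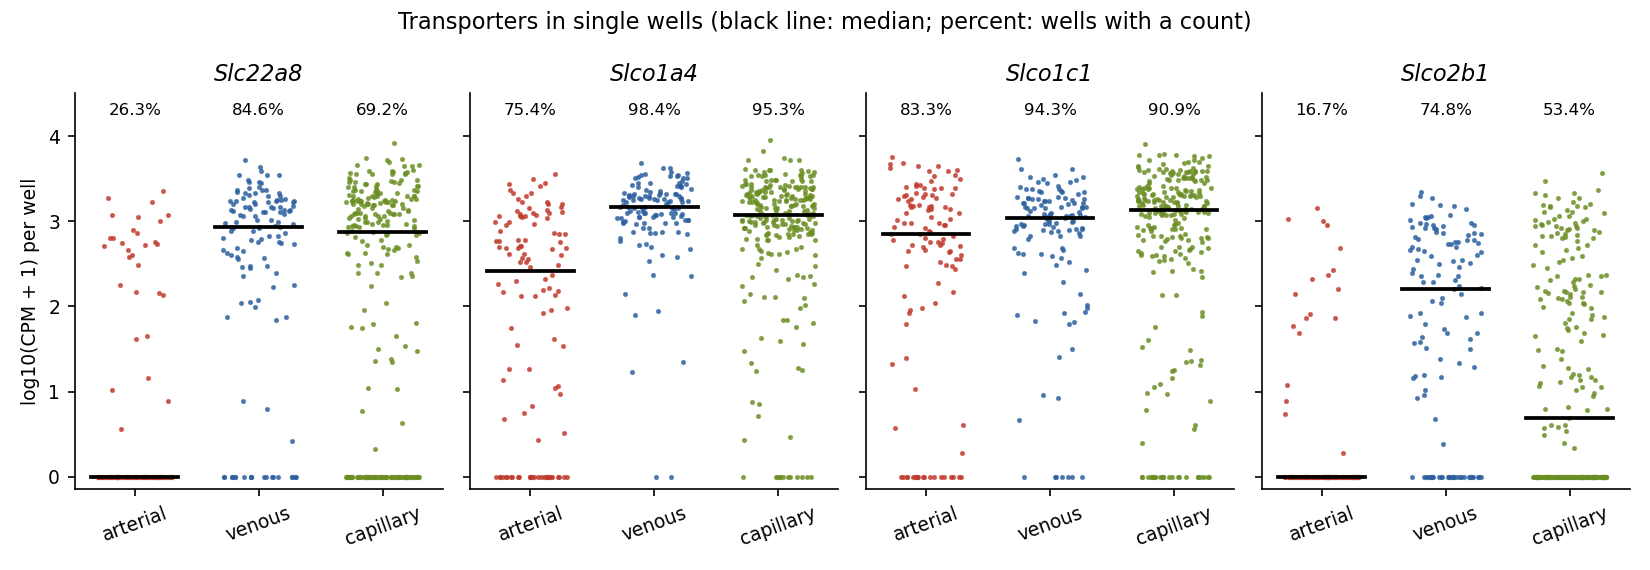
log10(CPM + 1) of each transporter (y axis) in single arterial, venous and capillary wells of all 3 sets; each point is a well, black lines are medians, and the percentages are wells with a count. For Slc22a8 26.3% of arterial wells had a count, against 84.6% of venous and 69.2% of capillary wells.

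Counted together, 1 of the 4 transporters was called lower in arterial than in capillary wells, where 0.231% of all 9094 genes tested were called lower and 0.099% higher. Against venous wells 2 of the 4 were lower, where 0.704% of all genes were lower and 0.847% higher. Between venous and capillary wells edgeR called 0 of 4 at either the adjusted threshold or an unadjusted p under 0.05, DESeq2 called 0 and limma called 1, and 0.011% of all genes were called by edgeR. There the log2 fold changes were −0.06 ± 0.16 for Slc22a8, 0.11 ± 0.17 for Slco1a4, −0.37 ± 0.26 for Slco1c1 and 0.92 ± 1.37 for Slco2b1 (edgeR adjusted p = 0.9998 for each). The median log2 fold change of the 4 was −1.99 for arterial against capillary, −2.10 for arterial against venous and 0.03 for venous against capillary wells, beside −0.07, −0.06 and −0.02 over all genes tested. A sum by itself cannot tell fewer positive wells from less RNA per well, so the share of positive wells is given beside each gene's sums.

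Slc22a8, Slco1a4 and Slco1c1 took the same order in the size of the arterial difference in every set, which the design cannot test at 0.05. The arterial minus capillary difference of Slc22a8 was more negative than that of Slco1a4 by 1.60, 1.48 and 2.01 log2 units in Young1, Young2 and AY_Y3 (mean difference −1.69 ± 0.28, SD) and than that of Slco1c1 in every set too (mean −2.35 ± 0.49). Slco1a4 was in turn more negative than Slco1c1 in every set (mean −0.66 ± 0.61). For each of these 3 pairs the exact two-sided sign-flip permutation test over 3 sets gave p = 0.25, the smallest it can give. It was run on 6 pairs in each of 3 class contrasts, and no pair can pass 0.05. In the pairs with Slco2b1, which was at 0 in the arterial wells of Young1, the difference in Young2 and AY_Y3 was 1.52 and 0.34 for Slco1a4 minus Slco2b1 and 2.88 and 0.70 for Slco1c1 minus Slco2b1. For Slc22a8 minus Slco2b1 it was 0.045 in Young2 and −1.67 in AY_Y3, with opposite signs.

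**Figure D3:**
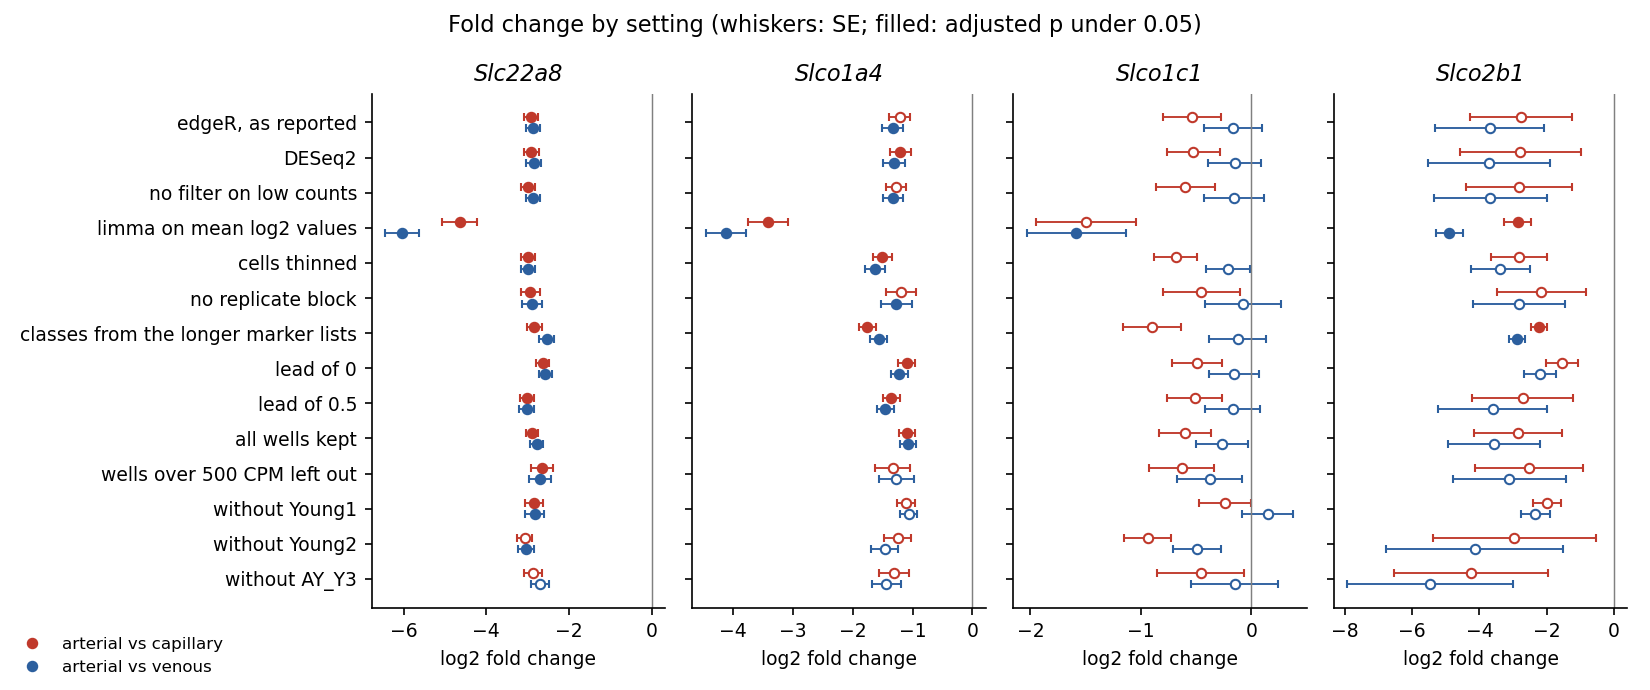
Log2 fold change (x axis) of each transporter in arterial against capillary wells (red) and arterial against venous wells (blue), with SE whiskers, in the reported fit and 13 alternatives down the page; filled points have an adjusted p under 0.05. All Slc22a8 and Slco1a4 points lie below 0, and the limma fit, on means of log2(CPM + 1) per well, uses another scale.

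Along an axis from arterial to venous score, Slc22a8, Slco1a4 and Slco2b1 were lowest in the wells on the arterial side. The axis uses the arterial and venous markers that also define the classes, so it adds no independent support to the class differences. Of the 634 wells, 356 (56.2%) had no count of Bmx, Gkn3, Nr2f2 or Il1r1 and so share a single middle value, and bins of equal size would split them arbitrarily. They were kept together as step 3 of 5, between the 20.8% of wells on the arterial side, divided at their median into steps 1 and 2, and the 23.03% on the venous side, divided likewise into steps 4 and 5. Step 3 is thus set by the absence of these markers, which does not place its wells along a vessel. This division was chosen after the data were seen. In the 5 bins of equal size that had been planned, the most arterial bin averaged 306.7 ± 105.5 CPM for Slc22a8 and 715.6 ± 50.6 CPM for Slco1a4 (SD, n = 3 sets). Slc22a8 averaged 179.3 ± 111.5, 251.2 ± 68.7, 1069 ± 208.03, 1139 ± 258.1 and 1130 ± 343 CPM over steps 1 to 5 (SD, n = 3 sets). In every set both arterial steps lay below all later ones. Slco1a4 averaged 639 ± 104.4, 635 ± 243.6, 1492 ± 321, 1478 ± 83.6 and 1751 ± 246.6 CPM, again with the break between steps 2 and 3 in each set. Slco1c1 averaged 1253 ± 549, 1038 ± 444, 1549 ± 250.9, 1305 ± 322 and 1256 ± 95.7 CPM. Its steps 1 and 2 lay below all later ones in Young1, at 642 and 561 CPM against 933 to 1288 CPM, and did not in Young2 or AY_Y3. Slco2b1 averaged 64.3 ± 59.6, 85.8 ± 77.8, 231.1 ± 72.6, 356 ± 91.6 and 341 ± 64.7 CPM, lowest in steps 1 and 2 in each set.

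**Figure D4:**
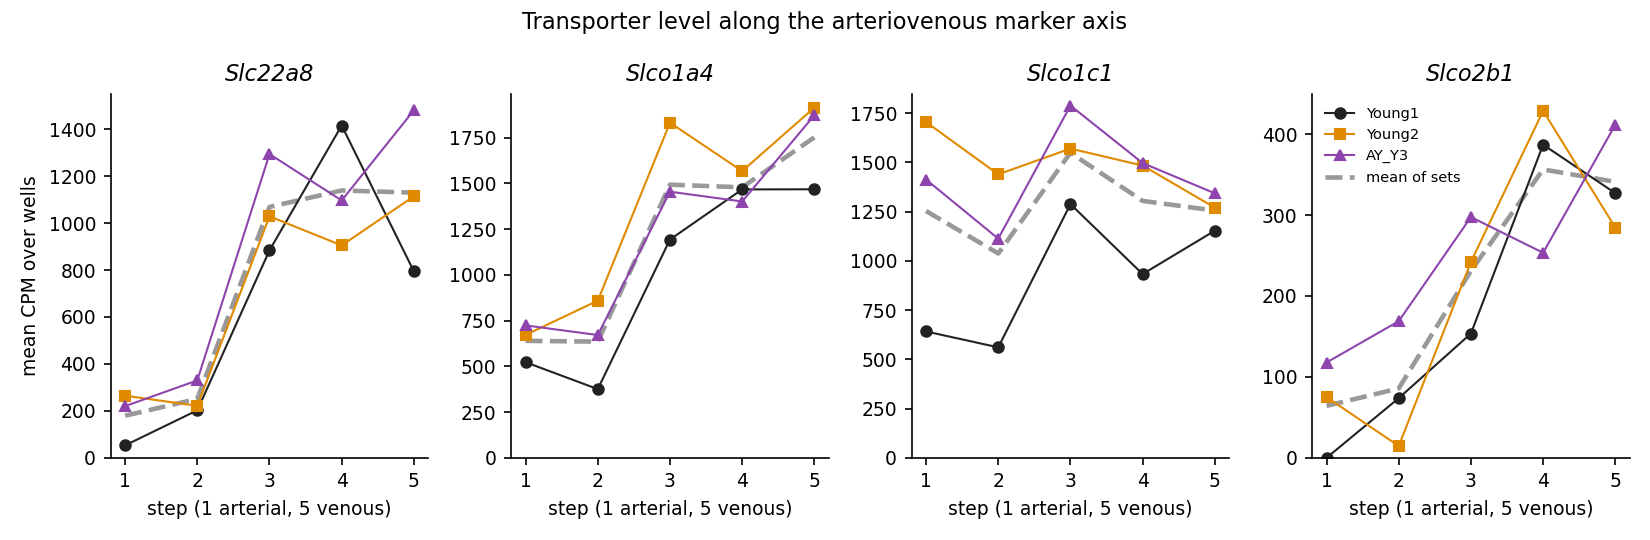
Mean CPM over wells (y axis, linear) of the 4 transporters in 5 steps along the arteriovenous marker axis (x axis), a line for each set and a dashed line for the mean of sets. Slc22a8 is at or below 330 CPM in steps 1 and 2 of every set and at or above 794 CPM from step 3 on.

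The single markers are given as descriptions across wells. They also define the classes, so they add no independent support to the class differences. Wells with a Bmx count averaged 178.2, 206.1 and 319 CPM of Slc22a8 in Young1, Young2 and AY_Y3, against 936, 1045 and 1297 CPM in wells without one. For Slco1a4 these were 588, 910 and 764 CPM with Bmx, against 1246, 1762 and 1502 CPM without. Spearman's rho with Bmx within sets averaged −0.35 for Slc22a8, −0.29 for Slco1a4, −0.25 for Slco2b1 and −0.10 for Slco1c1, over all the endothelial wells of a set. With Gkn3 it averaged −0.16, −0.16, −0.17 and −0.04 for these genes in the same order, and with the venous marker Nr2f2 0.18, 0.20, 0.21 and 0.01. With the venous marker Il1r1 it averaged 0.26 for Slco2b1, 0.17 for Slc22a8, 0.16 for Slco1a4 and −0.01 for Slco1c1. With the capillary markers Cxcl12 and Rgcc no mean rho passed 0.18 in size. Wells share library, depth and normalization, and rho with total counts averaged 0.02 to 0.07 for the 4 genes.

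The transporters were often found in the same wells. Of Slc22a8-positive wells, 98.4 to 100% per set also had Slco1a4 and 95.5 to 97.6% had Slco1c1, whereas 69.4 to 77.9% of wells without Slc22a8 had Slco1a4. Spearman's correlation across wells was 0.50, 0.44 and 0.44 for Slc22a8 with Slco1a4 in Young1, Young2 and AY_Y3. For Slco1a4 with Slco1c1, the neighbours on chromosome 6, it was 0.51, 0.31 and 0.34, and for Slc22a8 with Slco1c1 0.48, 0.23 and 0.38. Pairs with Slco2b1 had lower values, with means of 0.25 with Slc22a8, 0.21 with Slco1a4 and 0.11 with Slco1c1. Inside the classes the mean for Slc22a8 with Slco1a4 was 0.45 in arterial, 0.18 in venous and 0.34 in capillary wells. For Slco1a4 with Slco2b1 it was 0.36 in arterial, −0.11 in venous and −0.01 in capillary wells. That arterial mean covers only Young2 and AY_Y3, since no arterial well of Young1 had Slco2b1. All 4 transporters had a count in 7.02% of arterial, 63.4% of venous and 38.7% of capillary wells. Such shares depend on each gene's own detection in a class, and the share expected from that was not computed. Genes per well after thinning also differed, with set means of 1857 in arterial, 2246 in venous and 1549 in capillary wells.

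**Figure D5:**
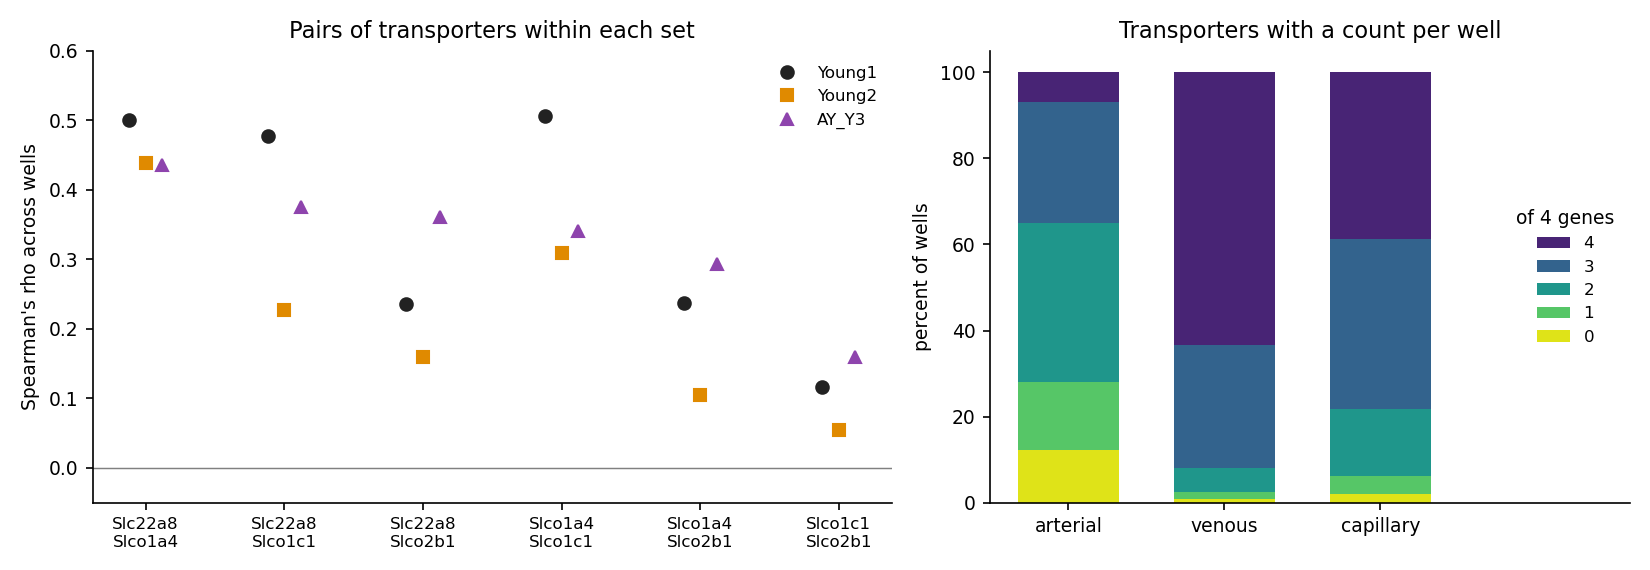
Left, Spearman's rho across wells (y axis) for each pair of transporters, a point for each set. Right, the percent of arterial, venous and capillary wells (y axis) with a count for 0 to 4 of the genes; all 4 were found in 7.02% of arterial and 63.4% of venous wells.

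The genes most like each member were sought among 3115 genes with a count in at least 25% of wells. Among those named below, Slc22a8 and Slco1a4 shared Gatm, Car4 and Itm2a. Slc22a8 and Slco2b1 shared Car4, Slc16a1 and Itm2a. Of the genes other than the members, Gatm, which makes the creatine precursor guanidinoacetate, came first for Slc22a8 (mean rho 0.54), Slco1a4 (0.50) and Slco1c1 (0.37). Slc22a8 was followed by the carbonic anhydrase gene Car4 (0.48), the lactate carrier gene Slc16a1 (0.45), its chaperone Bsg (0.45) and Itm2a (0.44). Slco1a4 was followed by Itm2a (0.44), Car4 (0.42), the amino acid carrier gene Slc7a5 (0.42) and Pglyrp1 (0.41). For Slco1c1 they were the glucose carrier gene Slc2a1 (0.34), Bsg (0.33), the lysolipid carrier gene Mfsd2a (0.32) and Slc7a5 (0.31), and for Slco2b1 Tmsb10 (0.31), Car4 (0.31), Itm2a (0.30), Slc16a1 (0.29) and Ctla2a (0.28). The median over all genes compared was at most 0.03 for Slc22a8, Slco1a4 and Slco1c1. With the members ranked among these genes, Slco1a4 was 3rd for Slc22a8, Slc22a8 was 2nd for Slco1a4, and Slco1a4 was 1st for Slco1c1 (mean rho 0.39), ahead of Gatm. Gatm had 58.4, 118.7 and 253.8 CPM in arterial sums, against 1605, 1559 and 1525 CPM in venous and 1259, 1414 and 1515 CPM in capillary sums.

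Of 37 other organic anion and cation transporter genes listed, 15 were in the table and 2 passed the filter on low counts, and neither was called by edgeR, DESeq2 or limma in any comparison, nor had an unadjusted edgeR p under 0.05. Those 2 were low: Slc22a5, the carnitine carrier gene, had 8.46 ± 7.71 CPM in arterial, 16.9 ± 4.24 in venous and 39.8 ± 26.5 in capillary sums, and Slc22a15 averaged 3.86, 8.11 and 3.72 CPM. Of 11 ABC efflux genes 5 were tested, and 1 was lower in arterial wells in each comparison. That gene was Abcg2, the breast cancer resistance protein pump of the luminal membrane, with 838 ± 94.4 CPM in arterial, 2126 ± 139.5 in venous and 1716 ± 217.8 in capillary sums (edgeR log2 fold change −1.30, adjusted p = 0.00656 against venous, and −1.01, adjusted p = 0.0301 against capillary). In the fits without Young1, Young2 or AY_Y3, which called few or no genes, the Abcg2 calls were lost. The edgeR adjusted p was 0.0726, 0.149 and 0.107 against venous and 0.169, 0.384 and 0.408 against capillary wells. The Abcg2 calls were also lost with wells over 500 CPM left out (edgeR adjusted p = 0.0624 and 0.259) and, against capillary wells, with a lead of 0 (0.0549). Abcb1a, the P-glycoprotein gene, had 445 ± 172.2, 849 ± 123.9 and 606 ± 18.2 CPM in arterial, venous and capillary sums and was not called (edgeR adjusted p = 0.0773 against venous and 0.515 against capillary). Against venous wells Abcb1a passed in 5 of 13 alternatives, among them DESeq2 (−0.91, adjusted p = 0.000444) and thinning (−1.06, edgeR adjusted p = 0.00959). Abcc4 averaged 430, 488 and 470 CPM in arterial, venous and capillary sums.

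Of 19 thyroid hormone genes 9 were tested, and the 2 lower against venous wells, of which 1 was also lower against capillary wells, form an amino acid carrier that can also take thyroid hormone. Slc3a2, the heavy chain shared by several amino acid carriers, had 641 ± 92.9 CPM in arterial, 1841 ± 346 in venous and 2091 ± 420 in capillary sums (edgeR log2 fold change −1.46, adjusted p = 0.00429 against venous, and −1.68, adjusted p = 0.00382 against capillary). These calls held without Young1 (edgeR adjusted p = 0.0278 and 0.0257). They were lost without Young2 (edgeR adjusted p = 0.107 and 0.1499) and without AY_Y3 (0.135 and 0.260), where few or no genes were called. Its light chain Slc7a5 had 84.1 ± 39.3, 389 ± 17.01 and 443 ± 32.4 CPM and was lower against venous wells (−2.22, edgeR adjusted p = 0.0348) but not called against capillary wells (−2.43, adjusted p = 0.0514). The first was lost in 6 of 13 alternatives. It was lost without Young1, Young2 or AY_Y3 (edgeR adjusted p = 0.0752, 0.324 and 0.195), where few genes were called. It was also lost with no filter (edgeR adjusted p = 0.0762), with a lead of 0.5 (0.146) and with wells over 500 CPM left out (−1.46, 0.161). The second passed in 7 of 13, among them DESeq2 (−2.42, adjusted p = 3.22e-09), thinning (−2.60, edgeR adjusted p = 0.00274) and all wells kept (−1.95, edgeR adjusted p = 0.00601). The list medians were −0.41 against venous and −1.08 against capillary wells, beside −0.06 and −0.07 over all genes.

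In the list of scaffold and kinase partners, Slc9a3r2, a membrane scaffold gene, was higher in arterial than in venous wells (edgeR log2 fold change 1.23, adjusted p = 0.00656). It had 2680 ± 426 CPM in arterial, 1193 ± 249.5 in venous and 2166 ± 233.04 in capillary sums. The call was lost without Young2 (edgeR adjusted p = 0.194) and without AY_Y3 (adjusted p = 0.107), where few genes were called. Against capillary wells the log2 fold change of Slc9a3r2 was 0.32 in arterial (edgeR adjusted p = 0.510) and −0.91 in venous wells (adjusted p = 0.103), neither called. Of the genes tested, edgeR called 0 of 6 for prostaglandin handling, 0 of 10 for steroid and drug conjugation and 0 of 7 for nuclear receptors and xenobiotic sensors in arterial against venous wells. At an unadjusted p under 0.05 these counts were 1, 3 and 1, and DESeq2 and limma each called 1, 3 and 1. Over all 9094 genes tested the counts were 1007 at an unadjusted p under 0.05, 645 by DESeq2 and 991 by limma. Ptges3 had 299 ± 53.8 CPM in arterial and 292 ± 82.6 CPM in venous sums, and Gsta4, a glutathione transferase, 222.3 ± 25.9 and 424 ± 49.2 CPM.

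Markers of other cells moved with the classes too, and their part in the results was not tested. Smooth muscle markers summed to 174.2 ± 74.95 CPM in arterial, 30.3 ± 26.7 in venous and 16.3 ± 2.01 in capillary sums. In the pooled arterial wells this was mostly Mylk (139.8 CPM), in venous wells mostly Mustn1 (25.99 CPM, with Mylk at 9.17) and in capillary wells mostly Mylk (14.9 CPM), while Acta2 was at 0.605 CPM and Tagln, Cnn1 and Des at 0 in the pooled arterial wells. Pericyte markers summed to 81.3 ± 34.1, 206.5 ± 88.4 and 182.5 ± 61.9 CPM, mostly as Rgs5. Endothelial markers summed to 18967 ± 1099, 16623 ± 1097 and 18237 ± 1480 CPM. Genes per well after thinning had set means of 1857, 2246 and 1549. With every well over 500 CPM on another cell type's markers left out, Slc22a8 was still called lower in arterial wells (edgeR log2 fold change −2.71, adjusted p = 0.0209 against venous, and −2.64, adjusted p = 0.036 against capillary), and Slco1a4 was not called (−1.27, adjusted p = 0.185, and −1.33, adjusted p = 0.295).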

How the data were processed

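Per the labels' protocols, brain tissue was dissociated and endothelial cells were isolated by FACS, with RNA libraries made by standard Illumina steps. The deposited values are whole-number counts per gene symbol and cell, without normalization. The submitters' processing notes list Bowtie 0.12.2 and the builds mm8 and mm10 but give them no role; no source used here names the counting tool, annotation or strand setting. No molecular identifiers are named for the reads. The intervals on detection are binomial over wells and cover counting error only, since wells are not replicates. Of 288 plate positions, 63.5% occurred in all 3 sets, and no 2 cells had identical counts. The members and lists were chosen with earlier results of these data known.

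CPM were computed per cell over all 20607 symbols. Wells with over 2000 CPM on the markers of another cell type were left out, and no doublet caller was run. Segment scores are means of log2(CPM + 1) of 2 markers, scaled within a set. Counts were added up within each set and class, since cells are not replicates, and the 9 sums were fitted with edgeR 4.0.16 (R 4.3.3; quasi-likelihood, TMM, set as block, 4 residual degrees of freedom). Genes passed edgeR's default filter and had a count in 5% of the wells entering, and the 6 class markers were left out. P-values were adjusted over all 9094 genes with Benjamini-Hochberg at 0.05. With set as a block, they rest only on how the class differences vary from set to set, and that variation may be technical. The classes were drawn from the same cells that were tested. Alternatives used DESeq2 1.42.0, limma 3.58.1, other classes, filters and wells, thinning to 50000 counts and leaving out each set. The code was tested on simulated counts. Python 3.11.15, numpy 2.4.6, pandas 2.3.3, scipy 1.17.1 and matplotlib 3.10.9 were used. Genes named beyond the 4 members were the 5 most alike per member and, of fixed lists, those called and up to 2 known members that were not.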

Additional observations from a re-analysis of the deposited data

Results flagged for a closer look

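Wells outside the classes of the reported comparisons also held the transporters; all wells kept and a lead of 0, among the alternatives, bring some of them in. In the 14.9% of cells left out for markers of another cell type, the mean was 985 CPM for Slc22a8, 1342 CPM for Slco1a4, 1521 CPM for Slco1c1 and 211.4 CPM for Slco2b1, each above the 0.0381 CPM that a count of 0 allows in their summed counts. In the 80 of these wells over the limit on pericyte markers, the endothelial markers averaged 16769 CPM and 82.5% had Slc22a8. In the 22.7% of endothelial wells that joined no class, the means were 945 CPM for Slc22a8, 1364 CPM for Slco1a4, 1310 CPM for Slco1c1 and 155.4 CPM for Slco2b1, above a limit of 0.0290 CPM.

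Slco1c1 differed in direction between sets. Its arterial minus capillary difference was 0.23 log2 units in Young2, while it was −1.30 in Young1 and −0.69 in AY_Y3. The difference between sets was not tested.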

How the results depend on the processing

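The limits are few sets, arterial sums of 23 to 48 wells and classes from 2 markers a segment. The share of tested genes called for arterial against capillary wells was 4.67% with DESeq2, 5.93% with limma, 1.56% with cells thinned, 0.594% with no replicate block, 1.38% with the longer marker lists, 0.927% with all wells kept, 0.067% with wells over 500 CPM left out and 0 to 0.088% without a set, against 0.330%. For venous against capillary wells it was 1.63%, 4.52% and 0.132% with DESeq2, limma and thinning, 0.022% with all wells kept, 0 with the longer lists, a lead of 0 or wells over 500 CPM left out, and 0 without any set, against 0.011% (415 genes at an unadjusted edgeR p under 0.05). For arterial against venous wells it was 7.09%, 10.9% and 2.86% with DESeq2, limma and thinning, 0.342% with no filter, where 19001 genes were tested, 0.348% with wells over 500 CPM left out and 0.055 to 0.351% without a set, against 1.55%. The causes were not tested.

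Slc22a8 was lower in arterial wells under all 13 alternatives. Its call ended only without a set (log2 fold change −3.07 to −2.85 against capillary and −3.03 to −2.70 against venous). Without a set edgeR called few or no genes, but the members still differed there. Slc22a8 was called without Young1 in both comparisons and without Young2 against venous wells, and Slco1a4 in none of these fits. Slco1a4 against capillary passed with DESeq2 (−1.20), limma (−3.42), thinning (−1.51), the longer lists (−1.76), a lead of 0 (−1.10) or 0.5 (−1.35) and all wells (−1.09). Against venous it was lost with wells over 500 CPM left out (−1.27) and without a set (−1.47 to −1.06). Slco2b1 passed against capillary with limma (−2.87) and the longer lists (−2.24), and against venous with limma (−4.89) and the longer lists (−2.89). The longer lists hold Car4 and Itm2a, both among the 5 genes most like Slc22a8, Slco1a4 and Slco2b1. Passing with these lists is therefore not independent of those members. Slco1c1 against venous passed with limma (−1.58) and was −0.49 to 0.15 without a set. For venous against capillary wells Slco2b1 passed with limma (2.02). There the uncalled sign turned for Slc22a8 with limma (1.39), a lead of 0.5 (0.011) and wells over 500 CPM left out (0.062), and for Slco1c1 with limma (0.089). For Slco1a4 it turned with the longer lists (−0.19), all wells (−0.018) and wells over 500 CPM left out (−0.056), and was −0.048 to 0.22 without a set. The limma medians over all genes were −0.18 for arterial against venous, 0.16 for arterial against capillary and 0.37 for venous against capillary wells. Of detection, levels and rho under other settings, 26 values moved by less than 1 SD of the sets and 4 by more. Among the 4 were Slco1a4 detection after thinning (86.2%) and at 10 counts or more (85.3%), against 89.3%. The others were Slc22a8 and Slco1a4 at the arterial end of the axis. There the planned equal bins gave 306.7 and 715.6 CPM, and the steps used above gave 179.3 and 639 CPM.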
